A study of Homo sapiens with 6 samples.

Results

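The genes of the hypoxia response and of glycolysis were followed across 6 RNA sequencing libraries of HT-29 xenograft tumours. The 42 genes were taken by symbol from a list of names drawn up with earlier results of these data known, and they held 399 of the 116485 annotated transcripts in the deposited table, which carry 29236 gene symbols. HT-29, an established line from a human colorectal cancer, is labelled wild type, and in a xenograft such cells grow as a tumour inside a host animal, which supplies blood vessels and connective tissue. The control group was untreated and the other group received extracorporeal shock waves, pressure pulses applied from outside the body, at 60 mJ. Both groups were sampled at day 15, carry the same batch label and held 3 libraries each. All 6 libraries represent 1 cell line, and the host strain is not given in the labels. Separate animals are not stated either, so a p-value reflects the spread among these libraries, which may be technical. The comparison asks whether transcript levels differed between shock wave and control tumours. Shock wave replicate 3 is given apart from replicates 1 and 2 throughout.

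Cells sense oxygen through the prolyl hydroxylases of the EGLN family. With oxygen present, these enzymes hydroxylate the alpha subunits HIF1A and EPAS1, which the VHL ubiquitin ligase then marks for destruction. When oxygen falls the alpha subunits escape, pair with ARNT (also called HIF1B) and bind DNA, and genes for glucose uptake, glycolysis, lactate and acid export, blood vessel growth and mitophagy are transcribed. Regulation of HIF1A is mainly at the protein level, which RNA does not show. Glycolysis splits glucose to pyruvate, and tumours often carry the pyruvate on to lactate.

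Levels are in FPKM, fragments per kilobase of transcript and 1000000 reads, summed over the transcripts of a gene. Library totals recovered from the values, taken as FPKM, ran from 48320000 to 58570000 reads. The 12 markers of colorectal epithelium all reached 1 FPKM and summed to between 6265 and 8964 FPKM, the highest sum being that of shock wave replicate 3. Of the 7 endothelial markers in the table only 2 reached 1 FPKM, ESAM at 1.39 to 10.4 and EGFL7 at 1.09 to 4.62 FPKM. The list summed to between 3.14 and 13.2 FPKM. PECAM1 stayed at or below 0.677 FPKM, and VWF, CDH5, TEK and CLDN5 at or below 0.121. The 6 fibroblast markers in the table summed to between 4.83 and 26.6 FPKM, with COL1A1 between 1.32 and 23.0, and the 4 erythroid markers to at most 0.856 FPKM. The 5 macrophage markers in the table summed to between 1845 and 2085 FPKM, of which LYZ, an enzyme that epithelium also makes, held nearly all. CD68 measured 8.44 to 15.9 FPKM and CD14 1.27 to 3.03 FPKM, while CSF1R and PTPRC were at or below 0.102. All these markers are human gene symbols on the human build hg38, so they are no measure of host vessels, connective tissue or blood cells. Whether host reads were counted among them was not tested. In bulk tumour RNA, fewer cells of a type and less RNA per cell cannot be told apart.

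No gene of the list passed the test between the groups. Of the 42 genes, 39 reached 1 FPKM in at least 3 libraries and were tested, and 0 had a Benjamini-Hochberg adjusted p under 0.05 in limma, against 0% of the 13448 genes tested. Across all genes 426 were higher and 506 lower at an unadjusted p under 0.05. The smallest adjusted p of the list was 0.648. The difference between the groups, shock wave minus control on the log2(FPKM + 1) scale, was positive for 23 of the 39 and negative for 16, with a median of 0.04 beside -0.01 over all genes. That median changed sign with quantile normalization (-0.13), with sample quality weights (-0.19) and with equal summed FPKM in every library (-0.07, a setting that moved the median of all genes to -0.11). Leaving out control replicate 2 gave -0.10, and leaving out shock wave replicate 3 gave -0.17.

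The group means hid opposite positions of the shock wave libraries. The median difference of the 39 genes from the control mean, on the log2(FPKM + 1) scale, was -0.17 in shock wave replicate 1, -0.25 in replicate 2 and 0.34 in replicate 3. In the control libraries it was 0.11, -0.14 and 0.13. Over all genes the corresponding medians lay between -0.06 and 0.04. Shock wave replicate 3 held the highest value of all 6 libraries for 24 of the 39 genes, beside 25% of all genes, and the lowest for 6, beside 35.2% of all genes. Replicates 1 and 2 held the highest value for 0 and 1 of them. Control replicate 2 was the lowest control for 24 of the 39, beside 36.1% of all genes, so part of the list also varied among control libraries. These shares describe single libraries and carry no test.

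**Figure D1:**
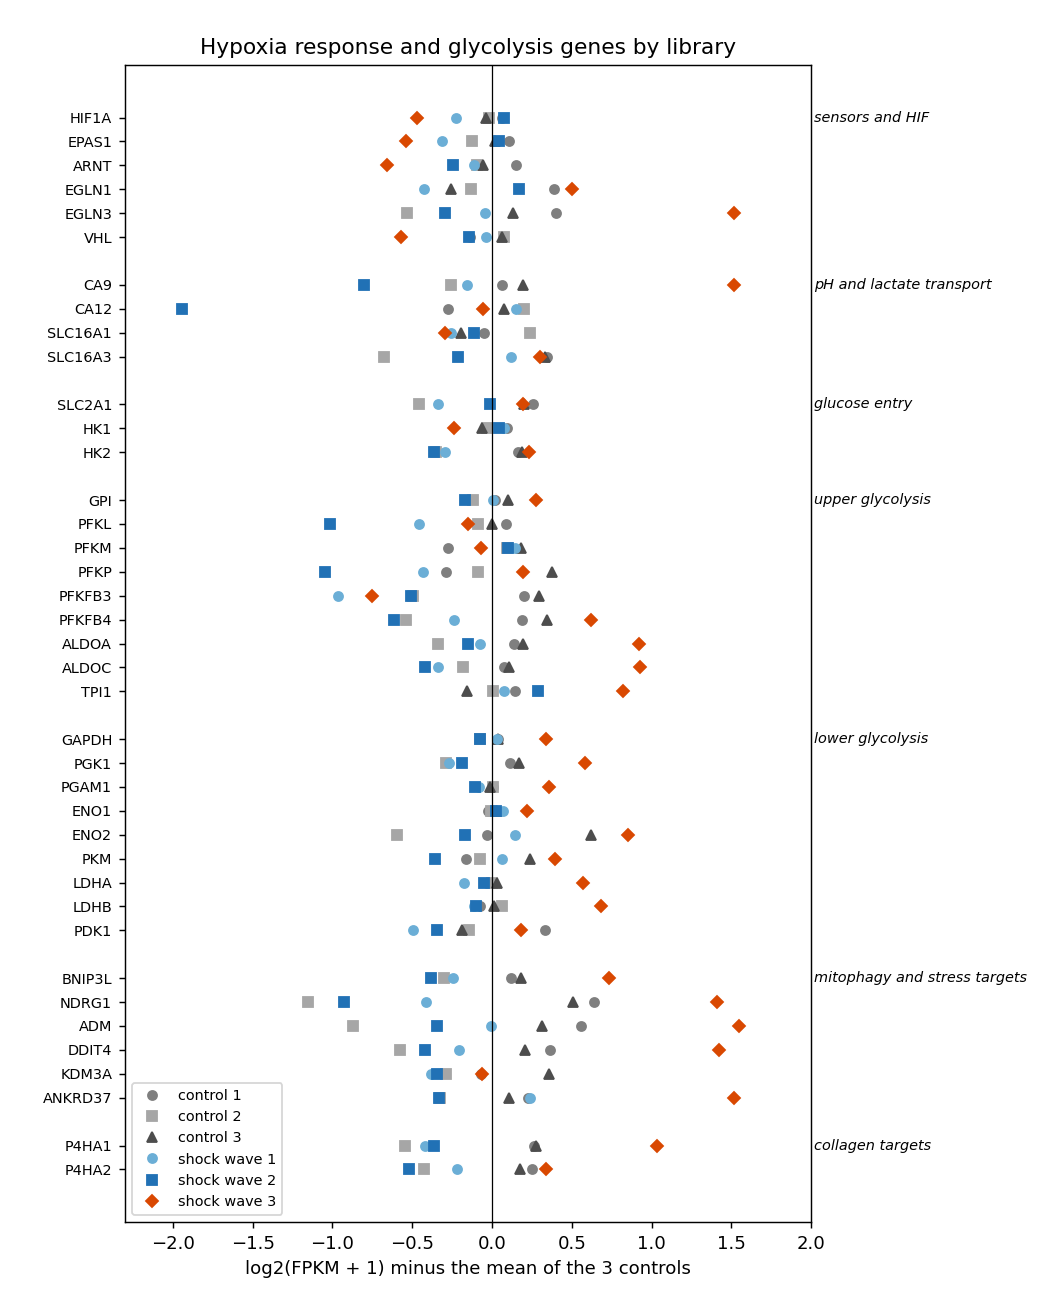
Each row is 1 of the 39 tested genes, grouped by role, and each symbol is 1 library, placed on the horizontal axis at its log2(FPKM + 1) minus the mean of the 3 controls. Shock wave replicate 3 (orange diamonds) sits at the right for CA9, EGLN3, NDRG1, ADM, DDIT4, ANKRD37 and P4HA1 and for most glycolytic genes. It sits at the left for HIF1A, EPAS1, ARNT, VHL and PFKFB3, and near the control mean for CA12 and KDM3A.

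Among the oxygen sensors and HIF subunits, the subunits themselves and VHL were lowest in shock wave replicate 3, while both EGLN genes were highest there. HIF1A, the oxygen-regulated alpha subunit, measured 20.3, 19.1 and 18.9 FPKM in controls and 16.5, 20.5 and 13.7 FPKM in shock wave replicates 1 to 3. Its libraries overlapped, with replicate 3 lowest and replicate 2 highest of all 6. EPAS1, also known as HIF2A, measured 26.7, 22.6 and 25.1 FPKM in controls and 19.7, 25.5 and 16.7 FPKM in shock wave libraries, again overlapping with replicate 3 lowest. ARNT, their shared partner, (chr1:150809705-150876768, hg38, minus strand) measured 9.41, 7.81 and 8.02 FPKM in controls and 7.68, 6.92 and 4.96 FPKM in shock wave libraries. Every shock wave value of ARNT lay below every control value, by a narrow margin for replicate 1. Its log2 difference was -0.34 (SE 0.20, limma unadjusted p = 0.130, adjusted p = 0.648). It was -0.18 without shock wave replicate 3, -0.19 with the length trend removed and -0.20 with sample quality weights. Larger differences came with equal summed FPKM (-0.44) and without shock wave replicate 1 (-0.45). Limma voom on recovered reads gave -0.46 (unadjusted p = 0.0413, adjusted p = 0.67). VHL measured 5.69, 6.73 and 6.68 FPKM in controls and 6.17, 5.64 and 3.95 FPKM in shock wave libraries, where replicate 3 stood lowest and replicate 1 lay within the controls. EGLN1, the main hydroxylase of HIF1A, measured 12.2, 8.25 and 7.49 FPKM in controls and 6.52, 10.4 and 13.4 FPKM in shock wave libraries, so that the shock wave libraries spanned the whole control range. EGLN3, a hydroxylase that is itself induced by HIF, measured 39.6, 20.2 and 32.5 FPKM in controls and 28.8, 24.0 and 86.8 FPKM in shock wave libraries. Replicates 1 and 2 of EGLN3 lay within the controls and replicate 3 stood at 2.19 times the highest of the other 5 libraries.

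The genes with the widest separation of shock wave replicate 3 were classic hypoxia-induced genes. Its log2 difference from the control mean was over 1 for 7 genes, and for 6 of them, all but P4HA1, it lay above the 99th percentile of all genes. With the length trend removed, DDIT4 and ANKRD37 also fell below the 99th percentile, to 98.8 and 98.5. CA9, EGLN3, NDRG1 and ADM stayed above it. CA9, a cell surface carbonic anhydrase that acidifies the outside of hypoxic cells, measured 142, 113 and 155 FPKM in controls, 122 and 77.5 FPKM in shock wave replicates 1 and 2, and 391 FPKM in replicate 3. ADM, which encodes the vessel-dilating peptide adrenomedullin, measured 21.8, 7.50 and 18.3 FPKM in controls, 14.5 and 11.3 FPKM in replicates 1 and 2, and 44.5 FPKM in replicate 3. DDIT4, an inhibitor of the growth kinase mTORC1, measured 70.9, 36.5 and 63.6 FPKM in controls, 47.3 and 40.7 FPKM in replicates 1 and 2, and 149 FPKM in replicate 3. In each of these genes replicate 3 stood above all other libraries, control replicate 2 was the lowest control, and replicates 1 and 2 lay within the controls except for replicate 2 in CA9, which was lowest of all. ANKRD37, an ankyrin repeat protein gene induced by HIF, measured 8.55, 5.53 and 7.80 FPKM in controls, 8.64 and 5.50 FPKM in replicates 1 and 2, and 22.4 FPKM in replicate 3. NDRG1, a stress-responsive gene and a widely used hypoxia marker, measured 431, 124 and 394 FPKM in controls, 207 and 145 FPKM in replicates 1 and 2, and 734 FPKM in replicate 3. P4HA1, a collagen prolyl hydroxylase subunit, measured 40.5, 22.7 and 40.9 FPKM in controls, 24.8 and 25.9 FPKM in replicates 1 and 2, and 69.9 FPKM in replicate 3.

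Over the 7 genes, replicate 3 exceeded the highest of the other 5 libraries by 1.70-fold for NDRG1 to 2.59-fold for ANKRD37. Control replicate 2 was the lowest control for all 7, and the controls themselves spanned a 3.49-fold range for NDRG1 and a 2.91-fold range for ADM. Shock wave replicate 1 lay within the control range for 6 of the 7 and replicate 2 for 5 of the 7. With a single library high, the group comparison gave CA9 a log2 difference of 0.19 (SE 0.55, limma adjusted p = 0.909). For NDRG1, whose controls also spread widely, the log2 difference was 0.02 (SE 0.71, limma adjusted p = 0.992). Without replicate 3 these turned to -0.48 for CA9 (SE 0.23, adjusted p = 0.826) and -0.67 for NDRG1 (SE 0.58, adjusted p = 0.859). The difference of replicate 3 from the controls stayed positive for the 7 genes under each scaling tried. It ranged from 1.06 to 1.53 for CA9 and from 0.81 to 1.58 for NDRG1, with the lowest value from quantile normalization in both. HIF1A, EPAS1, ARNT and VHL stayed negative in replicate 3 under each of these scalings, as in HIF1A from -0.71 to -0.24.

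**Figure D2:**
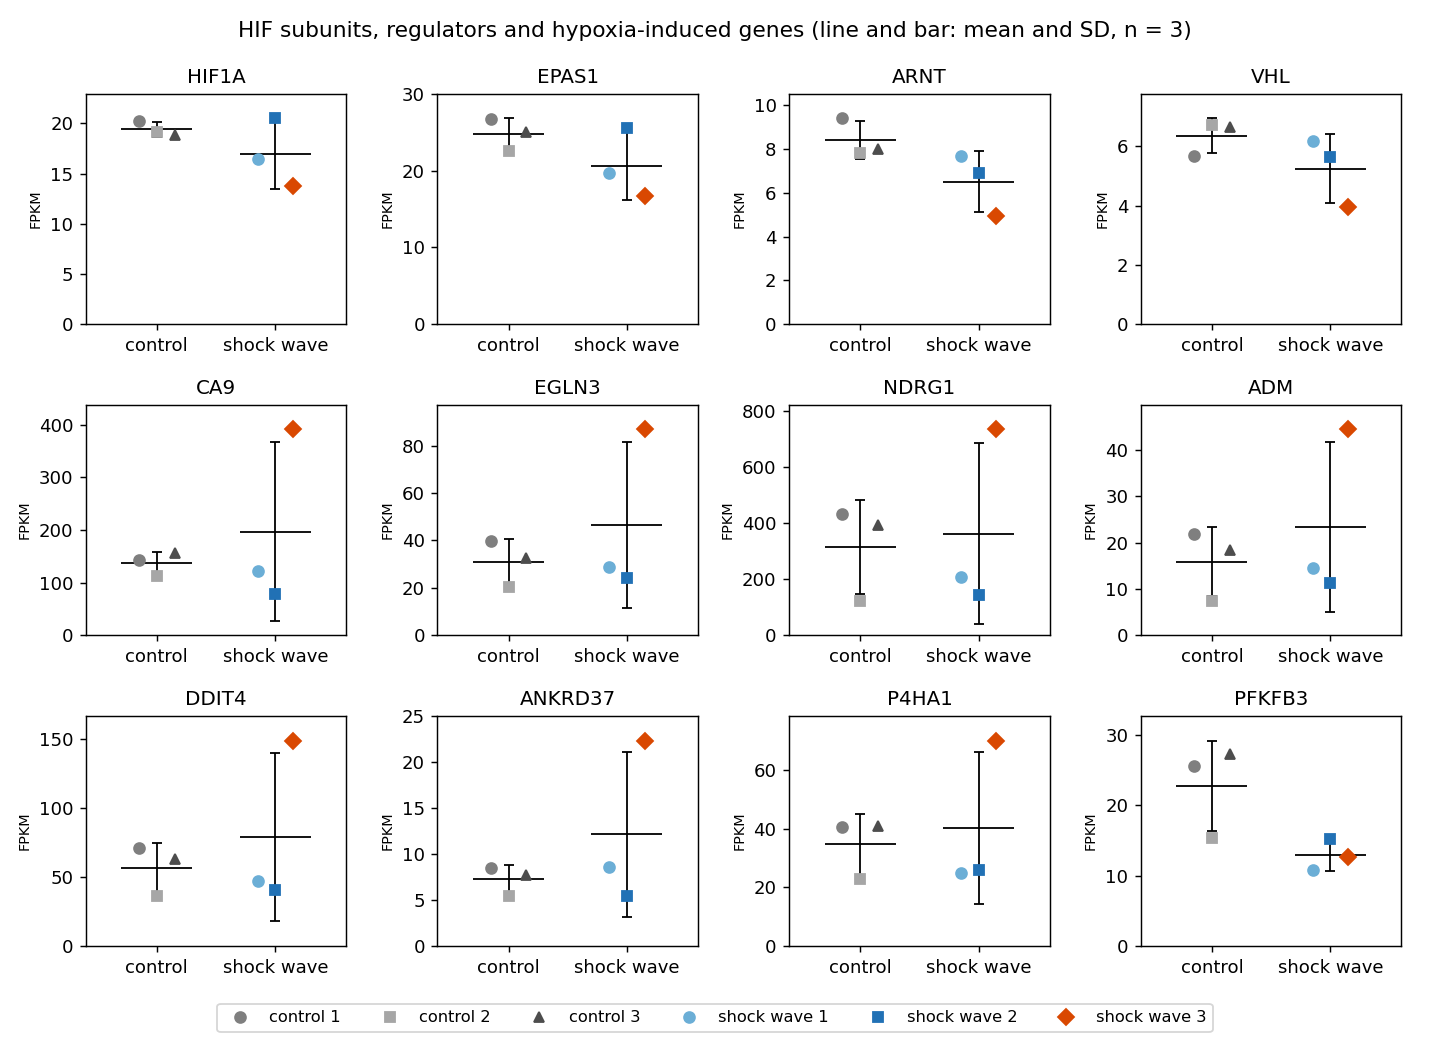
Each panel gives the FPKM of 1 gene in the 3 control and 3 shock wave libraries, with a line at the group mean and a bar for the SD (n = 3), on an axis that starts at 0. Shock wave replicate 3 is lowest of all for HIF1A, EPAS1, ARNT and VHL, highest for CA9, EGLN3, NDRG1, ADM, DDIT4, ANKRD37 and P4HA1, and within the shock wave range for PFKFB3.

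HIF binds the short DNA motif ACGTG or GCGTG, called the hypoxia response element, often close to a gene's start. The promoters of 5 of the 7 genes are shown to display where that motif falls. Each runs from 250 bases before to 50 after the start in the RefSeq table for GRCh38.p14, 5′ to 3′ on the strand of the gene, and capitals mark ACGTG or GCGTG on either strand (read on the other strand as CACGT or CACGC). They are CA9 at chr9:35673678-35673977 (plus strand), ADM at chr11:10304823-10305122 (plus), DDIT4 at chr10:72273674-72273973 (plus), ANKRD37 at chr4:185396591-185396890 (plus) and P4HA1 at chr10:73096817-73097116 (minus).

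CA9: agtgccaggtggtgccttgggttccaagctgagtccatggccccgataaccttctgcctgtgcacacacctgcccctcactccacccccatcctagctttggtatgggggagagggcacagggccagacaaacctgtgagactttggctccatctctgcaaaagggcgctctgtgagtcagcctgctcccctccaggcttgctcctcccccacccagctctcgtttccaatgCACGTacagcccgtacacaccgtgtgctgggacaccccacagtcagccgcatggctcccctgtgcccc

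ADM: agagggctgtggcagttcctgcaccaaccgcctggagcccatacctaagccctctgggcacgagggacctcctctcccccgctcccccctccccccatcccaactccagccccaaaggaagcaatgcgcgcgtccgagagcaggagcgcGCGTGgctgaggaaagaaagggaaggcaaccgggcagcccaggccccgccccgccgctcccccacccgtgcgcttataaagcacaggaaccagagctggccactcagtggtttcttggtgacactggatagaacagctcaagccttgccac

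DDIT4: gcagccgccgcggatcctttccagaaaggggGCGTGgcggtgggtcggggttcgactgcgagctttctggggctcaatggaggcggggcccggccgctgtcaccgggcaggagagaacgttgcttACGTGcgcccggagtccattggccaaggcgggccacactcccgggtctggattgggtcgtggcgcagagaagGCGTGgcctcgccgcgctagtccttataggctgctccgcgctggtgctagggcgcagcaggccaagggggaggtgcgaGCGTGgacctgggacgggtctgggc

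ANKRD37: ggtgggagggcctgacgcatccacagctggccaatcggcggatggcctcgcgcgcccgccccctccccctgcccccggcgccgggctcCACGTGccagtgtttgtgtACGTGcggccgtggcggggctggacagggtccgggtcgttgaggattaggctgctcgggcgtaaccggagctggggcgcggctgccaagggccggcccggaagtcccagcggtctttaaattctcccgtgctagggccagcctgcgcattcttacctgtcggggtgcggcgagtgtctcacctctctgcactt

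P4HA1: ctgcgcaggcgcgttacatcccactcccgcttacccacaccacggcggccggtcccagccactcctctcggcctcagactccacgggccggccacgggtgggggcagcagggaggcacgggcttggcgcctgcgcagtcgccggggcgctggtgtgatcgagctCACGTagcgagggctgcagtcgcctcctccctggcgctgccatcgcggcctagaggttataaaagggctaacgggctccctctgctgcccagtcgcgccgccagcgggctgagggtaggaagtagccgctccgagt

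CA9, ADM and P4HA1 each held 1 match, DDIT4 held 4 and ANKRD37 held 3, of which a pair overlap as CACGTG and count once per strand. The CA9 match lies 18 bases before the start. The EGLN3 window held none of these letters, and no promoter is shown for NDRG1. Of the 42 genes, 37 matched the table with 67 promoters in all, while VHL, SLC16A1, SLC2A3, BNIP3L and NDRG1 did not. At least 1 match to either motif occurred in 46 of the 67 promoters (68.7%), beside 48.4% of all 35116 promoters of the same length. For ACGTG alone the shares were 40.3% and 21.4%. The matches are a description of the sequence and were not measured as bound.

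Of the genes of acid and lactate transport, CA9 alone was highest in replicate 3. CA12, a second surface carbonic anhydrase, measured 30.6, 42.8 and 39.2 FPKM in controls and 41.3, 8.95 and 35.7 FPKM in shock wave libraries, so that shock wave replicate 2 alone was low. SLC16A1, the lactate transporter MCT1, measured 40.4, 49.6 and 36.4 FPKM in controls and 34.8, 38.7 and 33.9 FPKM in shock wave libraries, which overlapped. SLC16A3, the hypoxia-induced lactate exporter MCT4, measured 80.5, 39.2 and 79.7 FPKM in controls and 68.8, 54.3 and 78.3 FPKM in shock wave libraries, all within the control range.

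Glucose entry genes did not separate the groups. SLC2A1, the glucose transporter GLUT1, measured 464, 282 and 445 FPKM in controls and 306, 384 and 444 FPKM in shock wave libraries, within the control range. HK1, the housekeeping hexokinase that traps glucose in the cell, measured 52.6, 48.1 and 47.0 FPKM in controls and 51.9, 50.8 and 41.6 FPKM in shock wave libraries. HK2, the inducible hexokinase, measured 19.1, 13.1 and 19.4 FPKM in controls and 13.6, 13.0 and 20.1 FPKM in shock wave libraries. HK2 made up 26.6, 21.4 and 29.3% of the summed HK1 and HK2 level in controls and 20.8, 20.3 and 32.5% in shock wave libraries, lowest in replicates 1 and 2 and highest in replicate 3. SLC2A3, a neuronal-type glucose transporter, held at most 16 reads in a library and was not tested.

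In limma on the FPKM of all 6 libraries, the genes with the smallest p of the list lay at the phosphofructokinase step, which commits glucose to glycolysis. PFKFB3 (chr10:6144934-6254644, hg38, plus strand), a bifunctional enzyme that makes a potent activator of phosphofructokinase, measured 25.5, 15.4 and 27.4 FPKM in controls and 10.9, 15.3 and 12.7 FPKM in shock wave libraries. All shock wave values lay below all controls, with control replicate 2 and shock wave replicate 2 nearly equal. The log2 difference was -0.74 (SE 0.24, limma unadjusted p = 0.0197, adjusted p = 0.648). PFKL (chr21:44300051-44327376, hg38, plus strand), the liver-type phosphofructokinase subunit, measured 58.4, 51.5 and 54.8 FPKM in controls and 39.6, 26.6 and 49.3 FPKM in shock wave libraries. Here too the groups did not overlap, with replicate 3 close to the lowest control. The log2 difference was -0.54 (SE 0.22, unadjusted p = 0.0462, adjusted p = 0.648), and without shock wave replicate 2 it was -0.30 (unadjusted p = 0.0846). These were 2 of the 39 genes at an unadjusted p under 0.05 and lower, beside 3.76% of all genes, and 0 were higher, beside 3.17% of all genes. With ARNT they were the 3 genes lower without overlap, beside 8.69% of all genes, and 0 were higher without overlap, beside 7.75%.

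These separations were narrow and depended on the measure. Counted as recovered reads per 1000000, a view chosen after the values were seen, ARNT and VHL were lower without overlap, while PFKFB3 and PFKL overlapped. The share of all genes without overlap was not determined on this measure. PFKFB3 measured 75.6, 45.6 and 74.0 reads per 1000000 in controls and 39.9, 40.6 and 48.7 in shock wave libraries, where replicate 3 exceeded control replicate 2. PFKL measured 186, 143 and 181 reads per 1000000 in controls and 120, 80.5 and 156 in shock wave libraries, where replicate 3 again exceeded control replicate 2. On reads, limma voom gave PFKFB3 a log2 difference of -0.57 (unadjusted p = 0.0495, adjusted p = 0.670) and PFKL one of -0.57 (unadjusted p = 0.0629, adjusted p = 0.670). The unadjusted p of ARNT in limma voom, 0.0413, was smaller than both.

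Of the other genes of upper glycolysis, PFKP, the platelet-type subunit, measured 31.0, 35.8 and 49.8 FPKM in controls and 27.9, 18.0 and 43.8 FPKM in shock wave libraries, low in replicates 1 and 2 only. PFKM, the muscle-type subunit, measured 13.4, 17.6 and 18.7 FPKM in controls and 18.3, 17.7 and 15.6 FPKM in shock wave libraries, all within the controls. PFKFB4, a relative of PFKFB3, measured 7.38, 4.06 and 8.32 FPKM in controls and 5.22, 3.79 and 10.3 FPKM in shock wave libraries. ALDOA, the aldolase that splits the sugar in the middle of the pathway, measured 765, 550.0 and 796 FPKM in controls and 658, 627 and 1315 FPKM in shock wave libraries, and its symbol covers 2 overlapping gene identifiers in the table. ALDOC, a second aldolase, measured 26.4, 21.9 and 27.0 FPKM in controls and 19.6, 18.5 and 48.4 FPKM in shock wave libraries. In both aldolases replicate 3 was the highest of all 6, and in ALDOC replicates 1 and 2 were the lowest. TPI1, triose phosphate isomerase, measured 499, 454 and 406 FPKM in controls and 476, 551 and 798 FPKM in shock wave libraries. GPI, glucose phosphate isomerase, ranged from 146 to 177 FPKM in the other 5 libraries and measured 199.7 FPKM in replicate 3.

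Lower glycolysis held GAPDH and ENO1, the genes of the list with the highest mean levels, and in most of its genes shock wave replicate 3 was highest. GAPDH, the oxidizing step of the pathway, measured 1962, 1820 and 1960 FPKM in controls and 1957, 1816 and 2415 FPKM in shock wave libraries. ENO1, the main enolase, measured 950, 959 and 988 FPKM in controls and 1014, 985 and 1126 FPKM in shock wave libraries. PKM, pyruvate kinase, measured 456, 484 and 604 FPKM in controls and 533, 399 and 671 FPKM in shock wave libraries. LDHA, the lactate dehydrogenase subunit that favours lactate formation, measured 485, 496 and 507 FPKM in controls and 439, 479 and 736 FPKM in shock wave libraries. LDHB, its partner subunit, measured 404, 444 and 429 FPKM in controls and 393, 397 and 682 FPKM in shock wave libraries. Replicate 3 was highest of all 6 in each of these 5 genes. For GAPDH, LDHA, PKM and ENO1 the difference of replicate 3 from the control mean turned negative with quantile normalization, at -0.08, -0.08, -0.21 and -0.31. For ENO1 it was also negative with equal summed FPKM, at -0.04. The position of these genes in replicate 3 thus depends on the scaling. LDHB was not examined under these scalings, nor were ALDOA, ALDOC, TPI1 and PGK1. The ratio of LDHA to LDHB was between 1.08 and 1.21 in all libraries.

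PGK1, the first ATP-forming enzyme, measured 207, 156 and 215 FPKM in controls and 158, 167 and 286 FPKM in shock wave libraries. PGAM1, phosphoglycerate mutase, was tight in controls at 191, 190.5 and 188 FPKM and measured 179, 176 and 243 FPKM in shock wave libraries. ENO2, the neuronal enolase, measured 22.2, 14.7 and 35.4 FPKM in controls and 25.2, 20.03 and 41.7 FPKM in shock wave libraries. PDK1, a mitochondrial kinase that inactivates pyruvate dehydrogenase, measured 5.60, 3.76 and 3.61 FPKM in controls and 2.73, 3.13 and 4.96 FPKM in shock wave libraries, below all controls in replicates 1 and 2 only. The 18 genes of upper and lower glycolysis together took 1.47, 1.36 and 1.49% of the annotated FPKM of the controls and 1.34, 1.36 and 1.69% of that of the shock wave libraries, so that replicates 1 and 2 lay near control replicate 2 and replicate 3 above all.

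**Figure D3:**
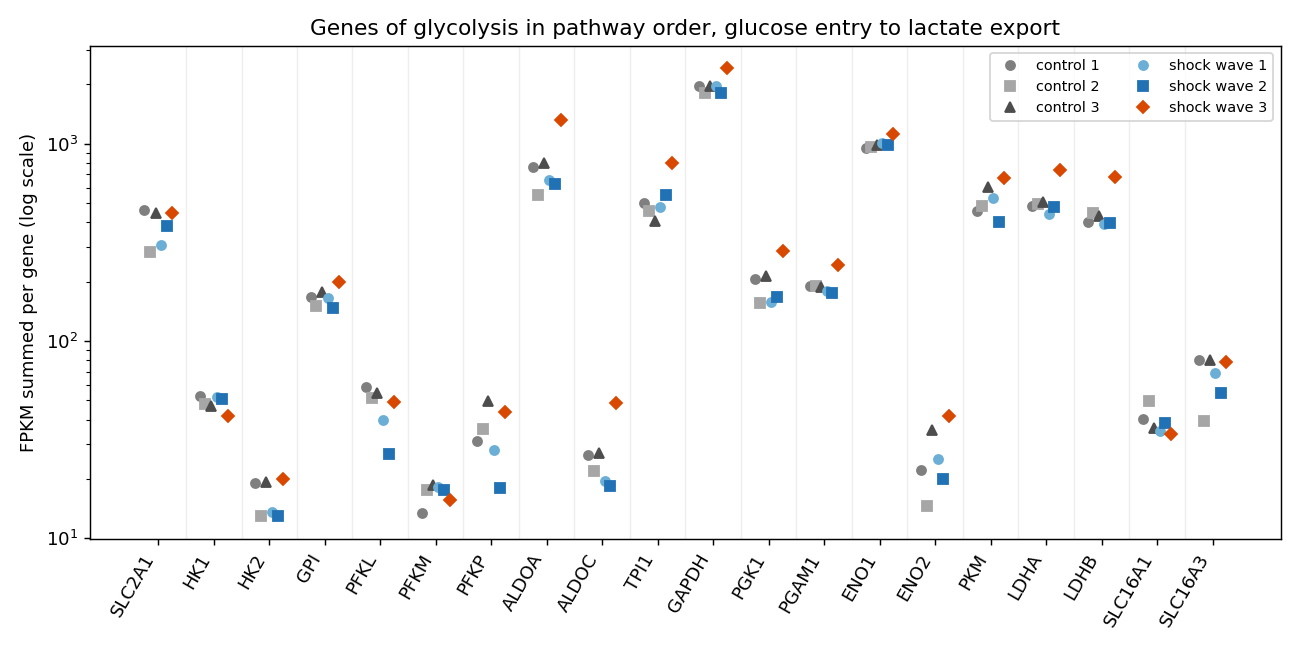
The horizontal axis lists 20 genes from glucose entry to lactate export, the vertical axis is FPKM on a log scale, and each symbol is 1 library. The lowest value is 13.0 FPKM for HK2 and the highest 2415 FPKM for GAPDH, and shock wave replicate 3 (orange diamonds) is the highest symbol from ALDOA to LDHB in each gene shown.

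Of the remaining targets, BNIP3L, a mitophagy receptor, measured 12.9, 9.35 and 13.5 FPKM in controls and 9.78, 8.79 and 20.2 FPKM in shock wave libraries. KDM3A, a histone demethylase, measured 16.3, 13.8 and 22.2 FPKM in controls and 12.9, 13.3 and 16.3 FPKM in shock wave libraries. P4HA2, a second collagen prolyl hydroxylase subunit, measured 24.8, 15.1 and 23.5 FPKM in controls and 17.6, 14.1 and 26.4 FPKM in shock wave libraries. Replicate 3 was highest for BNIP3L and P4HA2 and lay within the controls for KDM3A. BNIP3, the sister receptor of BNIP3L, stayed between 0.425 and 0.709 FPKM while its 8 pseudogenes summed to between 2.30 and 4.01 FPKM, so its own level is uncertain. LOX, which cross-links collagen, stayed at or below 0.424 FPKM. With SLC2A3, these were the 3 genes under 1 FPKM in every library.

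Without shock wave replicate 3 the list leaned to lower values, and again no gene passed. In limma on the 3 controls and shock wave replicates 1 and 2, 0 of 39 genes had an adjusted p under 0.05, beside 0.00723% of 13837 genes (1 gene, not of the list), and the smallest adjusted p of the list was 0.786. The difference was negative for 35 of the 39, beside 47.9% of all genes, with a median of -0.17 beside 0.01 over all genes. At an unadjusted p under 0.05, 4 genes were lower, beside 2.87% of all genes, and 0 higher, beside 2.69%. These were PFKL at -0.74 (SE 0.18, unadjusted p = 0.00872), ALDOC at -0.38 (unadjusted p = 0.0340), PFKP at -0.74 (unadjusted p = 0.0376) and PFKFB3 at -0.74 (unadjusted p = 0.0476) in limma. Both shock wave libraries lay below all controls for 10 genes, beside 11.1% of all genes, and above all controls for 0, beside 12.1%. The 10 were ARNT, PFKL, PFKP, PFKFB3, ALDOC, PGAM1, LDHA, LDHB, PDK1 and KDM3A. In recovered reads per 1000000, 7 of these 10 remained below all controls, and LDHA, LDHB and KDM3A did not. VHL and P4HA2 lay below all controls on reads only, which gave 9 genes. The share of all genes was not determined on reads.

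Shock wave replicate 3 differed from the others in a property that bears on every gene. Its difference from the control mean fell by 0.24 on the log2 scale per doubling of transcript length, compared with 0.11 and 0.03 in shock wave replicates 1 and 2 and close to 0 in the controls. Among the hypoxia-induced genes high in replicate 3, mean transcript lengths were 1003 bases for ANKRD37, 1608 for CA9, 1703 for DDIT4 and 1739 for ADM. For EGLN3, P4HA1 and NDRG1 they were 2508, 2828 and 3291 bases. The part of length in the levels of these genes was not tested. With the length trend removed from each library, the median of the 39 genes in replicate 3 was 0.41 beside -0.04 over all genes, and replicate 3 held the highest value for 26 of the 39, beside 22.4% of all genes. Length-corrected differences were 1.33 for CA9, 1.54 for EGLN3, 1.58 for NDRG1 and 1.18 for ANKRD37. For ADM, DDIT4 and P4HA1 they were 1.39, 1.26 and 1.13. They stayed negative for HIF1A (-0.24), EPAS1 (-0.21), ARNT (-0.38) and VHL (-0.39). The summed epithelial markers were highest in the same library, at 8964 FPKM against at most 7418 in the others. KRT8, KRT18, KRT19 and EPCAM were highest there, at 3394, 1146, 2089 and 599.9 FPKM. CDX2 and GPA33 were also highest there, at 6.89 and 16.6 FPKM, GPA33 by a narrow margin. KRT20, CDH1 and VIL1 were lowest there, at 569, 66.9 and 45.3 FPKM, and CDH17, CEACAM5 and LGALS4 were neither. The part of the markers in these values was not tested. With quantile normalization the median of the list in replicate 3 was 0.09, beside 0.03 over all genes, so the higher level of the list as a whole depends on the scaling.

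**Figure D4:**
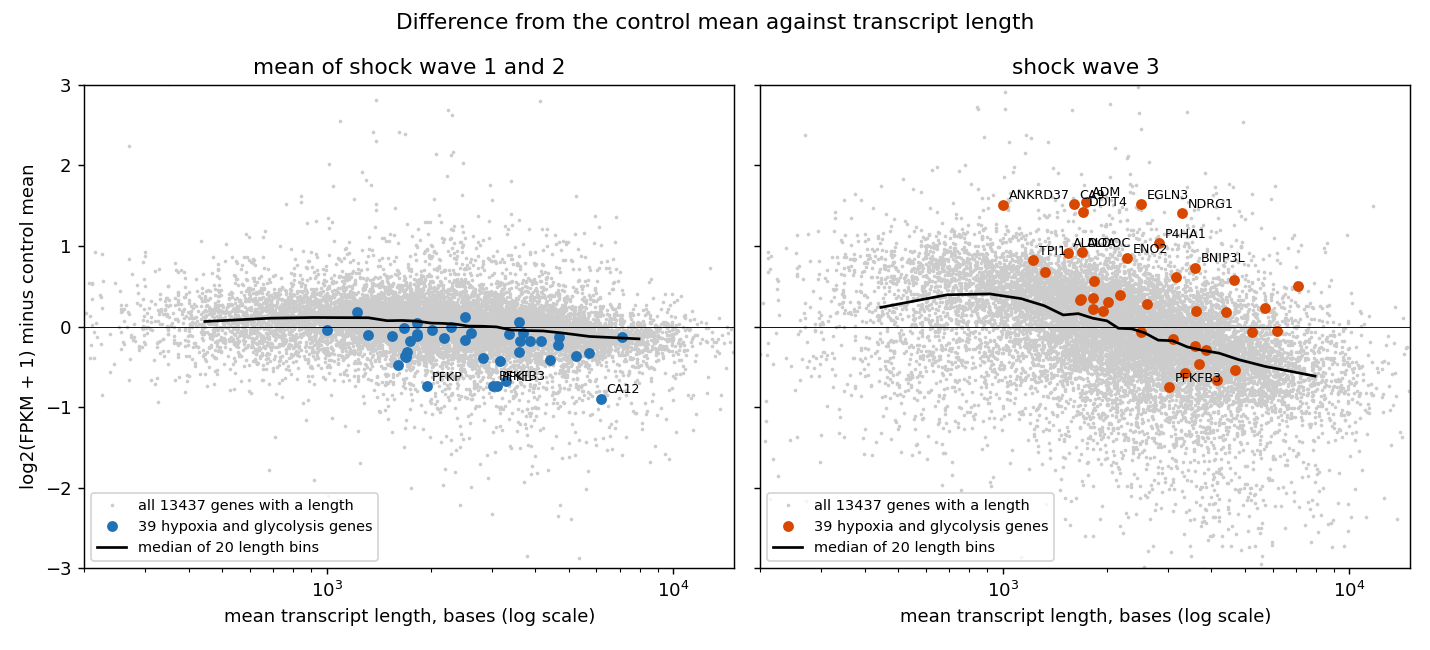
Each point is a gene, placed by its mean transcript length in bases (log scale) and by its log2(FPKM + 1) minus the control mean, for the mean of shock wave replicates 1 and 2 (left) and for replicate 3 (right), with grey points for all 13437 genes with a length, coloured points for the 39 genes of the list and a black line for the median of 20 length bins. The vertical axis ends at 3 in both directions, which leaves 27 genes outside in at least 1 panel. In replicate 3 the line falls with length, and CA9, ADM, DDIT4, ANKRD37, EGLN3, NDRG1 and P4HA1 lie well above it.

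At the level of single transcripts, 161 transcripts of the list reached 1 FPKM in at least 3 libraries, and 0 of them had an adjusted p under 0.05 in limma, beside 0.203% of 28517 transcripts. At an unadjusted p under 0.05, 3 were higher and 5 lower, beside 3.05% and 3.53% of all transcripts. Without overlap 6 were higher and 11 lower, beside 6.87% and 7.34%. The transcript with the highest mean was the same in both groups for 38 of the 42 genes and differed for ENO2, NDRG1, PFKFB3 and PFKL.

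In HIF1A the transcripts of 1 gene differed in opposite directions. Its protein-coding transcript ENST00000337138 measured 14.8, 13.8 and 14.4 FPKM in controls and 3.04, 7.87 and 10.04 FPKM in shock wave libraries, without overlap. The other HIF1A transcripts summed to 5.45, 5.30 and 4.44 FPKM in controls and 13.5, 12.7 and 3.71 FPKM in shock wave libraries, higher in replicates 1 and 2 than in any control. ENST00000394997 held most of that sum in replicate 1, at 11.4 FPKM against 2.61 to 2.98 in controls, and ENST00000323441 in replicate 2, at 9.11 FPKM against at most 1.59. PFKL differed most in its protein-coding transcript ENST00000349048, at 34.2, 21.7 and 24.4 FPKM in controls and 0.622, 4.17 and 13.97 FPKM in shock wave libraries. The other PFKL transcripts summed to 24.2, 29.9 and 30.4 FPKM in controls and 39.0, 22.4 and 35.4 FPKM in shock wave libraries, overlapping. For NDRG1, the high level in replicate 3 lay in ENST00000414097, at 539 FPKM against 2.39, 35.1 and 100.6 in controls and 39.3 and 8.34 in shock wave replicates 1 and 2. The other NDRG1 transcripts, at 194 FPKM in replicate 3, lay within their control range of 88.6 to 429 FPKM.

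Lactate dehydrogenase held the transcripts called when shock wave replicate 3 was left out, which are named after their values were seen. There 2 of the 161 transcripts passed in limma, beside 0.109% of all transcripts. LDHB transcript ENST00000350669 measured 358, 391 and 385 FPKM in controls, 113 and 105 FPKM in shock wave replicates 1 and 2, and 670.1 FPKM in replicate 3, with a log2 difference of -1.79 without replicate 3 (SE 0.09, adjusted p = 0.0250). Its longer form ENST00000396076 measured 28.6, 38.5 and 20.1 FPKM in controls, 253 and 242 FPKM in replicates 1 and 2, and 2.32 FPKM in replicate 3. The LDHB gene total in reads, at 522, 578 and 549 per 1000000 in controls and 555 and 542 in replicates 1 and 2, overlapped. LDHA transcript ENST00000227157 measured 17.6, 24.0 and 25.3 FPKM in controls, was listed at 0 in replicates 1 and 2 and measured 40.2 FPKM in replicate 3 (adjusted p = 0.0250 without replicate 3). With all 6 libraries neither passed, with adjusted p of 0.780 for the LDHB and 0.760 for the LDHA transcript.

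**Figure D5:**
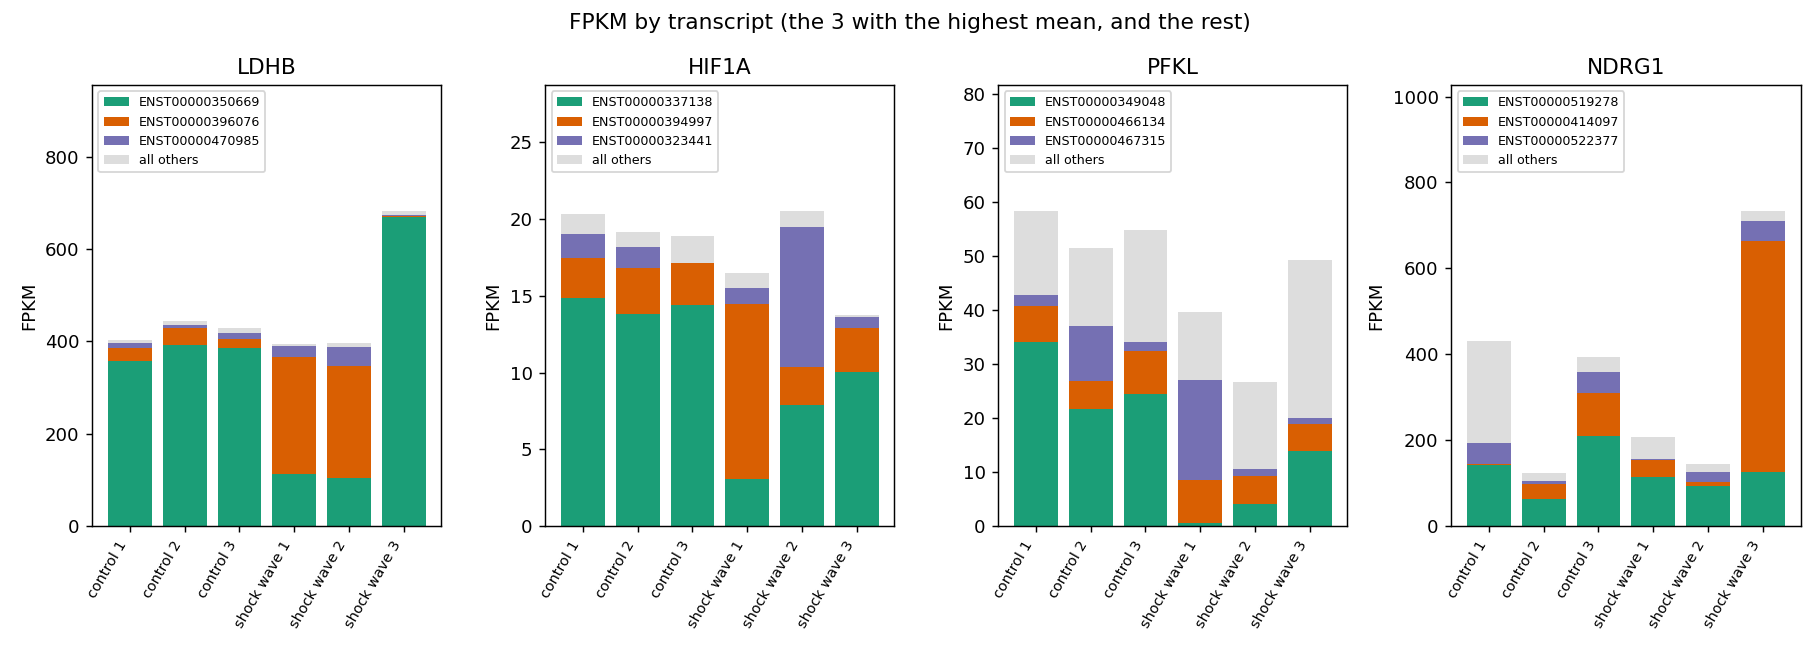
Stacked bars give FPKM by transcript in the 6 libraries for LDHB, HIF1A, PFKL and NDRG1, with colours for the 3 transcripts of each gene with the highest mean and grey for all others. In LDHB the orange transcript replaces most of the green one in shock wave replicates 1 and 2 alone, and in NDRG1 1 transcript holds 539 FPKM of shock wave replicate 3.

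Pyruvate kinase occurs as the M1 and M2 forms, which differ by a mutually exclusive exon, and tumours typically use M2. Transcripts in the table with the M2 exon (chr15:72202454-72202620, hg38) made up 75.1, 72.5 and 71.0% of the FPKM assigned to either form in controls and 70.5, 91.9 and 74.2% in shock wave libraries. Only shock wave replicate 2 stood outside the control range by more than 1 percentage point. The PKM transcript ENST00000568459 measured 38.6, 37.4 and 55.1 FPKM in controls and 29.4, 0.0201 and 18.9 FPKM in shock wave libraries, without overlap. Of the other transcripts without overlap, the retained-intron form ENST00000466525 of GAPDH measured 13.997, 16.7 and 13.4 FPKM in controls and 23.9, 22.9 and 40.1 FPKM in shock wave libraries, at most 1.66% of the gene. ENO2 transcript ENST00000229277 measured 5.89, 6.48 and 6.00 FPKM in controls and 16.8, 11.3 and 7.80 FPKM in shock wave libraries. The main ENO1 transcript ENST00000234590 measured 869.7, 893 and 917 FPKM in controls and 921, 928 and 1034 FPKM in shock wave libraries, higher by a narrow margin. These 3 were the named transcripts that were higher without overlap.

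Of the transcripts with a mean of at least 5 FPKM in 1 group, others lower without overlap were minor forms of ENO1 and PKM and the main transcript of ARNT. Below that level, the main VHL transcript ENST00000256474 was also lower without overlap. It measured 4.82, 4.01 and 5.04 FPKM in controls and 3.39, 3.98 and 3.54 FPKM in shock wave libraries. Minor transcripts of ENO1, NDRG1 and PFKP below that level were lower without overlap too and are not given. The retained-intron form ENST00000492343 of ENO1 measured 7.41, 6.04 and 6.36 FPKM in controls and 4.61, 3.14 and 2.66 FPKM in shock wave libraries. The retained-intron form ENST00000564993 of PKM measured 8.53, 5.30 and 7.53 FPKM in controls and 4.24, 5.19 and 1.47 FPKM in shock wave libraries. ARNT transcript ENST00000358595 measured 7.53, 6.13 and 6.68 FPKM in controls and 5.68, 4.80 and 4.57 FPKM in shock wave libraries.

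The remaining named transcripts had the highest mean of their gene in 1 group only. ENO2 transcript ENST00000541477 led by mean in controls, with its highest value in control replicate 3, at 1.45, 3.41 and 20.7 FPKM in controls and 3.67, 4.12 and 1.70 FPKM in shock wave libraries. PFKFB3 transcript ENST00000640683 measured 14.6, 4.07 and 14.998 FPKM in controls, was listed at 0 in shock wave replicates 1 and 3 and measured 8.45 FPKM in replicate 2. ENST00000379775 led PFKFB3 in the shock wave group, at 6.24, 1.97 and 3.16 FPKM in controls and 6.11, 0.00404 and 8.77 FPKM in shock wave libraries. PFKL transcript ENST00000498841 led by mean in the shock wave group, at 5.65, 0.814 and 6.08 FPKM in controls and 0.313, 6.54 and 14.1 FPKM in shock wave libraries. NDRG1 transcript ENST00000519278 led in controls, at 142, 64.0 and 209 FPKM, and measured 114, 93.9 and 125 FPKM in shock wave libraries.

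The wider pathway, from 3 further lists that do not hold the 42 genes, held 0 genes that passed the adjusted test. Of 13 tested HIF pathway regulators, 1 (OS9) was higher and 2 (CREBBP and EP300) were lower at an unadjusted p under 0.05 in limma, beside 3.17% and 3.76% of all genes. OS9, which binds HIF1A and the hydroxylases, measured 42.4, 36.1 and 51.2 FPKM in controls and 69.5, 57.9 and 63.9 FPKM in shock wave libraries (log2 difference 0.56, SE 0.16, unadjusted p = 0.0103, adjusted p = 0.648). EP300, a coactivator that HIF recruits, measured 18.7, 18.0 and 17.1 FPKM in controls and 11.96, 13.2 and 4.31 FPKM in shock wave libraries (log2 difference -0.93, SE 0.37, unadjusted p = 0.0406, adjusted p = 0.648). Without shock wave replicate 3 its difference was -0.48 (SE 0.12, unadjusted p = 0.00822, adjusted p = 0.785). CREBBP, its close relative, measured 20.5, 17.7 and 18.8 FPKM in controls and 14.2, 13.6 and 8.29 FPKM in shock wave libraries. These 3 genes, named by their p, did not overlap between the groups, beside 7.75% of all genes higher and 8.69% lower without overlap.

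Of 24 tested further glycolysis genes, 2 (FBP1 and MPC1) were higher and 0 lower at an unadjusted p under 0.05, beside the same 3.17% and 3.76% of all genes. FBP1, the gluconeogenic enzyme that opposes phosphofructokinase, measured 84.3, 86.9 and 75.4 FPKM in controls and 103, 96.1 and 108 FPKM in shock wave libraries (log2 difference 0.31, SE 0.12, limma unadjusted p = 0.0318, adjusted p = 0.648). MPC1, a subunit of the carrier that takes pyruvate into mitochondria, measured 0.696, 2.27 and 3.89 FPKM in controls and 7.82, 5.07 and 7.20 FPKM in shock wave libraries (log2 difference 1.34, SE 0.39, unadjusted p = 0.0118, adjusted p = 0.648). Both, also named by their p, were higher without overlap, beside 7.75% of all genes. Of 33 tested further hypoxia targets, 0 were higher and 3 lower (CCNG2, JMJD6 and MXI1) at an unadjusted p under 0.05, beside 3.17% and 3.76% of all genes. CCNG2 and JMJD6 were lower without overlap, beside 8.69% of all genes. CCNG2 measured 13.5, 12.5 and 10.6 FPKM in controls and 9.48, 9.09 and 8.14 FPKM in shock wave libraries. JMJD6 measured 39.8, 35.4 and 32.7 FPKM in controls and 31.0, 24.8 and 28.2 FPKM in shock wave libraries. MXI1, an antagonist of MYC, measured 29.3, 32.5 and 24.1 FPKM in controls and 12.1, 8.42 and 24.3 FPKM in shock wave libraries, low in replicates 1 and 2 only, with a log2 difference without replicate 3 of -1.41 (SE 0.20, unadjusted p = 0.000691, adjusted p = 0.319). Of these 33 targets, 17 were highest in shock wave replicate 3, beside 25% of all genes, and their median difference in that library was 0.26.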

How the data were processed

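The authors deposited 1 table of normalized expression for 131516 transcripts in 6 libraries. No source names the unit. The deposited values were taken as FPKM. Value times GENCODE 29 transcript length, divided by a factor fitted to each library, gave whole numbers, within 0.05, for 99.65 to 99.70% of values worth 0.5 to 100 reads. As the factor was free, another length-scaled unit could pass too. FPKM is therefore an assumption, on which the library totals rest. Per the submitters' processing notes the build was hg38. Per the labels' protocols Trizol was used for total RNA and a SMARTER mRNA-seq kit for the libraries. The sources used here name neither an aligner nor a quantifier, nor any removal of host reads. Reads sit on single transcripts, so overlapping genes and near-identical copies are uncertain.

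FPKM were summed per symbol, and 15031 rows without a gene were left out. Groups came from the treatment label. Genes with at least 1 FPKM in 3 of 6 libraries were log2-transformed with a pseudocount of 1 and tested with limma-trend (limma 3.58.1, R 4.3.3), adjusted over all genes. The fit without shock wave replicate 3 required 2 of 5 libraries. Differences are on that scale, which understates changes of low genes. The genes, lists and tests were chosen with earlier results of these data known. Named were genes of the list whose groups did not overlap or with an unadjusted p under 0.05, the 2 highest of each role, transcripts of at least 5 FPKM that separated or led in 1 group, and further-list genes with an unadjusted p under 0.05. The remaining genes of the list are given as values.

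Alternatives were limma without trend, quantile, upper-quartile and same-sum scaling, other filters, a pseudocount of 0.1, removal of the length trend, voom on recovered reads, sample quality weights, the replicate block and each library left out. On simulated data, 200 of 13448 genes differing in 3 against 3 libraries were recovered in 36.6% of cases at a log2 size of 1, 78.4% at 2 and 92.8% at 3.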

Additional observations from a re-analysis of the deposited data

How the results depend on the processing

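No gene of the list passed under any gene-level alternative tried, each library left out included, and the median of the list over all 6 libraries moved between -0.19 and 0.15. Over all genes the count past the threshold, 0 with all 6 libraries, was 2 with voom on recovered reads and 2 with sample quality weights, and ranged from 0 to 5 with each library left out, with 5 without shock wave replicate 2 and 1 without shock wave replicate 3. Without shock wave replicate 3 the count of 1 gene became 0 with no filter, 3 with a filter of 5 FPKM, 4 with a pseudocount of 0.1 and 2 with voom. The 58 transcripts became 18 with the filter of 5 FPKM and 32 with the pseudocount of 0.1, and ranged from 1 to 31 with each library left out. With the replicate block 0 transcripts and 0 genes passed, and the block changed no call of the list. Same-numbered libraries correlated at -0.01, -0.01 and 0.03 in their deviations from the group means. No pairing by number was seen, which does not exclude a paired design. The cause of these changes was not tested. With 3 libraries a group, log2 differences of 1 were mostly missed on simulated data, so a gene that did not pass is not shown to be equal between the groups.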

Other observations

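Of the 33 tested hypoxia targets outside the 42 genes, 24 lay above the control mean in shock wave replicate 3, beside 46.0% of all genes. ZNF395, GYS1, CCNG2 and TFRC were instead lowest of all 6 libraries there, at 0.757, 16.5, 8.14 and 53.4 FPKM. The 4 targets that follow stood high in that library. They are named after their values were seen and carry no test. VEGFA, the main vessel growth factor, measured 114, 59.0 and 119 FPKM in controls, 52.2 and 63.5 FPKM in shock wave replicates 1 and 2, and 165 FPKM in replicate 3. HILPDA, a lipid droplet protein gene, measured 5.08, 4.03 and 4.96 FPKM in controls, 2.73 and 11.4 FPKM in replicates 1 and 2, and 27.7 FPKM in replicate 3. ANGPTL4, a secreted inhibitor of lipoprotein lipase, measured 2.499, 0.555 and 2.49 FPKM in controls, 1.89 and 0.827 FPKM in replicates 1 and 2, and 6.96 FPKM in replicate 3. MIR210HG, the host transcript of a hypoxia-induced microRNA, measured 7.87, 4.80 and 8.19 FPKM in controls, 7.40 and 1.90 FPKM in replicates 1 and 2, and 23.6 FPKM in replicate 3. In these 4 genes replicate 3 was the highest of all 6 libraries, and control replicate 2 was the lowest control.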
